A study of Drosophila melanogaster with 18 samples.

Results

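The 1974 transcription initiation sites described here lie on the X chromosome of Drosophila melanogaster, between its left end and 21 Mb in genome build dm3. They were chosen by position alone, and they are 1974 of the 13218 sites in the genome-wide list of a STAP-seq screen. X above 21 Mb, toward the centromere, held a further 112 sites, which were left out. The comparison arms were 2L with 2134 sites, 3L with 2521 and 3R with 3071, together 7726.

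STAP-seq asks which short stretches of DNA can start transcription in a plasmid, with or without an added enhancer. Short genomic fragments are cloned into a plasmid upstream of a reporter, and the 5′ ends of the reporter transcripts show at which base and on which strand initiation took place. The genome-wide screen was done in S2 cells, an embryonic fly line with properties of blood cells. Its fragments, 100 to 250 bp long, were made from the genomic DNA of y; cn bw sp embryos, the strain used for the reference genome, and were tested in 2 samples with the zfh1 enhancer and in 2 samples with a vector without an enhancer. The labels of all 4 samples name the same list, which gives a position, a strand and a serial number for each site. The list is named after zfh1, and the condition in which its sites were called is not stated. No level and no sample column comes with a site, so depth is unknown, nothing can be said of the enhancer's effect or of replicate spread, and every test below runs across sites or windows of 1 list.

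The X chromosome has a regulation of its own in flies. Males carry a single X, and the MSL complex, a ribonucleoprotein assembly that contains the roX RNAs, binds the male X and raises the transcription of its genes through acetylation of histone H4. S2 cells are of male origin and carry this complex. A fragment in a plasmid is taken out of its chromosome. The assay thus reads what its sequence can do in the plasmid, with or without an enhancer. The element read is the core promoter, on which RNA polymerase II and the general transcription factors assemble. Such elements can fire in 1 direction or, as divergent pairs, from neighbouring start sites that point away from each other.

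Initiation sites were found along all of the X interval. The first member lay at 6362 on the minus strand and the last at 20994812 on the plus strand; the next site, outside the limit, was at 21043104 on the plus strand. Each of the 21 windows of 1 Mb held sites, from 61 to 156 with a median of 92. The densest window lay between 1 and 2 Mb with 156 sites, followed by that between 19 and 20 Mb with 123 and that between 2 and 3 Mb with 116. The sparsest lay between 4 and 5 Mb with 61 sites and its neighbour between 3 and 4 Mb had 68, so a dense and a sparse stretch adjoin near the left end. In stretches of 3 Mb the density was 119.7 sites per Mb over the first 3 Mb, 73.7 between 3 and 6 Mb, and 103.7 between 18 and 21 Mb.

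X held 94.0 sites per Mb (exact Poisson 95% interval 89.9 to 98.2), fewer than the 102.6 (100.3 to 104.9) of 2L, 3L and 3R together. The ratio was 0.916 (0.872 to 0.963), with an exact two-sided binomial p of 0.000502 and 0.00351 after Benjamini-Hochberg (BH) adjustment over the 7 comparisons of X with these arms. That call rests on treating sites as independent. The variance of the counts per 1 Mb window was 5.32 times their mean on X and 4.998 times on the other arms. With 1 Mb windows as the unit the ratio was 0.913 and the adjusted p 0.380, and the call was lost. Arm by arm, 2L had 92.8 sites per Mb (88.9 to 96.9), just below X, whereas 3L had 102.9 (98.9 to 107.0) and 3R had 110.3 (106.4 to 114.3). The part of each arm that fragments reached, or that reads could be placed on, was not tested.

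**Figure D1:**
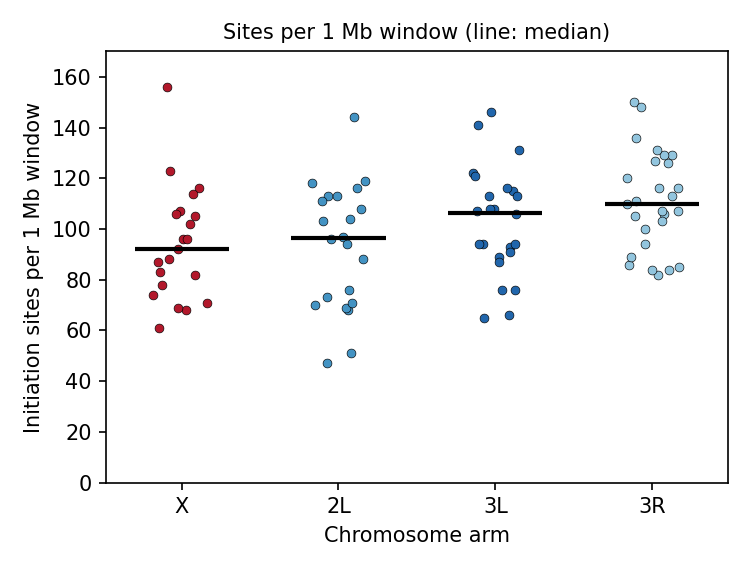
Initiation sites in each whole 1 Mb window (y axis, number of sites) of X (21 windows), 2L, 3L and 3R (x axis, arm); each point is a window and each line the arm's median. Windows on X lie between 61 and 156 sites and overlap widely with those of the other arms.

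Gaps between neighbouring X sites, on either strand, had a median of 5820 bp, and the middle part of the distribution ran from 1523 bp (the lower quartile) to 13745 bp (the upper quartile). The median was 5877 bp on 2L, 5422.5 bp on 3L and 5110.5 bp on 3R. On X 7 gaps passed 100 kb, against 5 on 2L, 1 on 3L and 1 on 3R. Gaps above 50 kb numbered 61 on X, 63 on 2L, 47 on 3L and 46 on 3R, and neither count was tested. The widest ran for 157.7 kb from 6253582 to 6411316, the next for 152.8 kb from 15827274 to 15980029, and the third for 133.7 kb from 9256541 to 9390220. Of the X sites 605 (30.6%, Wilson 95% interval 28.7 to 32.7) had no other site within 5000 bp, against 28.4% (27.5 to 29.5) on the other arms. The difference was 2.20 percentage points (-0.040 to 4.50), and it did not pass the test (Fisher's exact p = 0.0550, BH-adjusted 0.128). At 10000 bp the same comparison passed, with a difference of 2.19 points (adjusted exact p = 0.0328), and at 2000 bp its direction turned (-0.58 points). These tests treat sites as independent. With 1 Mb windows as the unit the adjusted p of the quasi-binomial fit at 5000 bp was 0.404, and 10000 bp was not fitted that way. Arm by arm, the share at 5000 bp was 29.9% on 2L, close to X, 28.5% on 3L and 27.4% on 3R.

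The plus strand carried 1038 of the 1974 X sites, or 52.6% (50.4 to 54.8), and the minus strand the rest. On 2L, 3L and 3R the plus strand carried 49.7%, 49.4% and 49.8%. The difference from the arms together was 2.95 percentage points (0.47 to 5.41). It had an unadjusted Fisher's exact p of 0.0203 and did not pass after adjustment over the 7 comparisons (0.0711). Plus-strand sites were more numerous in 17 of the 21 X windows and in 34 of the 73 windows of the other arms. Over stretches of 3 Mb the plus-strand share was highest in the left part of X, with 58.4% (51.8 to 64.7) between 3 and 6 Mb and 55.4% (50.3 to 60.5) in the first 3 Mb. It was 47.7% (42.0 to 53.5) between 9 and 12 Mb and 50.2% (44.6 to 55.7) between 18 and 21 Mb. The stretches were not tested against each other. Above 21 Mb, outside the interval described here, the balance was the other way, with 43 plus-strand and 69 minus-strand sites.

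No single window passed the test for unequal use of the strands. In an exact binomial test per window, BH-adjusted over all 94 windows, 0 of the 21 X windows were called, and the share called over all windows was 0%. At an unadjusted p under 0.05 there was 1 X window, against 6 of 94 in all (6.38%). That window was the densest, between 1 and 2 Mb, with 92 plus-strand and 64 minus-strand sites (exact p = 0.0303, adjusted 0.554). The longest run of consecutive X sites on 1 strand held 13 minus-strand sites over 97.7 kb, from 12763578 to 12861272.

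**Figure D2:**
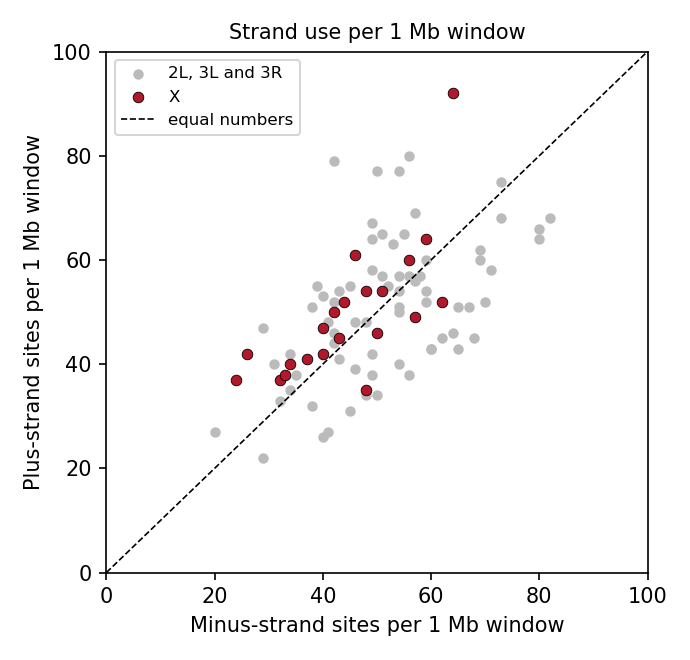
Plus-strand sites (y axis, number) against minus-strand sites (x axis, number) in each 1 Mb window, for X and for 2L, 3L and 3R; the dashed line marks equal numbers. Of the 21 X windows 17 lie above the line, most of them close to it.

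Many X sites had a partner nearby on the same strand. Within 100 bp 310 sites, or 15.7% (14.2 to 17.4), had one, against 14.2% (13.5 to 15.0) on the other arms, a difference of 1.49 percentage points (-0.24 to 3.33; Fisher's exact p = 0.0996, adjusted 0.166). On the opposite strand 152 sites, or 7.70% (6.60 to 8.96), had a partner within 100 bp, against 7.92% (7.34 to 8.54), a difference of -0.22 points (-1.48 to 1.17; Fisher's exact p = 0.779, adjusted 0.804). Neither comparison passed the test, and the intervals leave room for differences of a few percentage points in the first case and about 1 in the second. Same-strand sites on X never lay closer than 22 bp, the same floor as on 3L and 3R, whereas sites on opposite strands came within 2 bp. At 5000 bp 49.6% of the X sites had a same-strand neighbour and 52.5% of those on the other arms (unadjusted Fisher's exact p = 0.0202). At 10000 bp the shares were 68.1% and 71.8% (unadjusted Fisher's exact p = 0.00152). Both comparisons were outside the 7 and treat sites as independent. How far they follow from the density of sites on X was not tested.

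**Figure D3:**
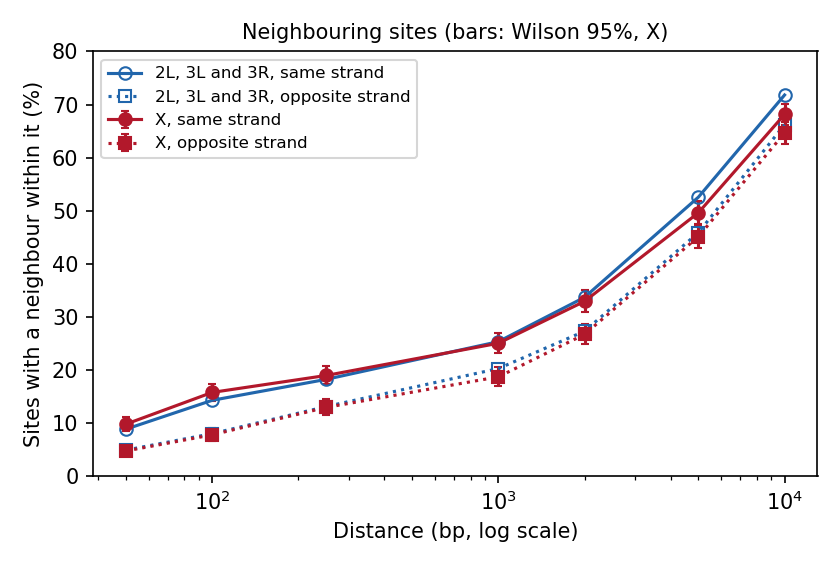
Share of sites with another site on the same or on the opposite strand (y axis, percent) within a given distance (x axis, bp, log scale), for X with Wilson 95% intervals and for 2L, 3L and 3R. The X curves follow those of the other arms up to 2000 bp, and from 5000 bp the same-strand curve of X runs lower, at 49.6% against 52.5%.

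Most members stood by themselves. With sites up to 250 bp apart joined, whichever their strand, the X sites formed 1665 groups, of which 1419 (85.2%) were single sites, 197 held 2 sites, 39 held 3 and 10 held 4 or more. On 2L, 3L and 3R the single sites made up 85.8%, 86.0% and 85.5% of the groups. Of the X groups of 2, 122 (61.9%) had both sites on the same strand, 53 were divergent and 22 convergent.

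The largest X group held 6 sites within 244 bp, from 1996320 to 1996563, in the densest window. The plus strand carried 5 of them, at 1996320, 1996464, 1996486, 1996518 and 1996563, and the minus strand 1, at 1996325. The site at 1996518 had by far the lowest serial number of the group, 220, and those at 1996464 and 1996486 had numbers 13018 and 13019, near the end of the list. A group of 5 within 135 bp, from 7453610 to 7453744, had 3 minus-strand sites to the left of 2 plus-strand sites. The group of 5 from 18586771 to 18587011 had the same layout within 241 bp, with its lowest number, 1016, at the outermost minus-strand site. Both thus consist of sites that point away from each other. There were 7 X groups of 4 sites, and the shortest ran over 56 bp from 19552958 to 19553013 with 3 plus-strand sites and 1 minus-strand site. The second shortest ran over 87 bp from 18409459 to 18409545, with all 4 sites on the plus strand.

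Opposite-strand pairs on X at 22 to 250 bp were more often divergent than convergent. At 22 to 250 bp there were 128 such pairs. In 92 the minus-strand site lay to the left, which makes them divergent, and the other 36 were convergent, a divergent share of 71.9% (63.5 to 78.9; exact binomial p against an equal split = 7.88e-07). The share was 56.1% on 2L, 68.5% on 3L, 65.4% on 3R and 64.3% (60.01 to 68.3) on the 3 arms together. X exceeded these by 7.62 percentage points (-1.64 to 15.9), which did not pass the test (Fisher's exact p = 0.118, adjusted 0.166). With pairs up to 1000 bp apart the difference was 0.87 points (Fisher's exact p = 0.873). A site can enter several pairs, so these p-values are too small. Pairs closer than 22 bp, the smallest same-strand distance on X, were left out of these shares. They were 8 divergent and 16 convergent on X and 48 and 44 on the other arms. No alternative took them in, so the share of 71.9% holds for the chosen range only.

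By distance, divergent and convergent X pairs numbered 24 and 11 at 51 to 100 bp, 26 and 8 at 101 to 150 bp, 18 and 4 at 151 to 200 bp, and 11 and 2 at 201 to 250 bp. The divergent share was thus 68.6%, 76.5%, 81.8% and 84.6% in turn, with wide intervals (57.8 to 95.7 in the last range). On the other arms it was 59.5%, 78.2%, 70.6% and 69.1% in the same ranges. Beyond 250 bp X had 15 and 15 pairs at 251 to 500 bp and 19 and 26 at 501 to 1000 bp (exact binomial p = 0.371). At 501 to 1000 bp the other arms had 140 and 101 (58.1% divergent, exact binomial p = 0.0142). X was not tested against them in that range. Among the closest X sites there were 8 divergent and 16 convergent pairs at 1 to 21 bp (exact binomial p = 0.152) and 13 and 11 at 22 to 50 bp. The distance ranges were not tested against each other. Divergent X pairs at 22 to 250 bp had a median distance of 116.5 bp and convergent ones 73.5 bp. The limit of 250 bp is also the upper length of the fragments, and sites closer than that can lie on the same fragment.

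**Figure D4:**
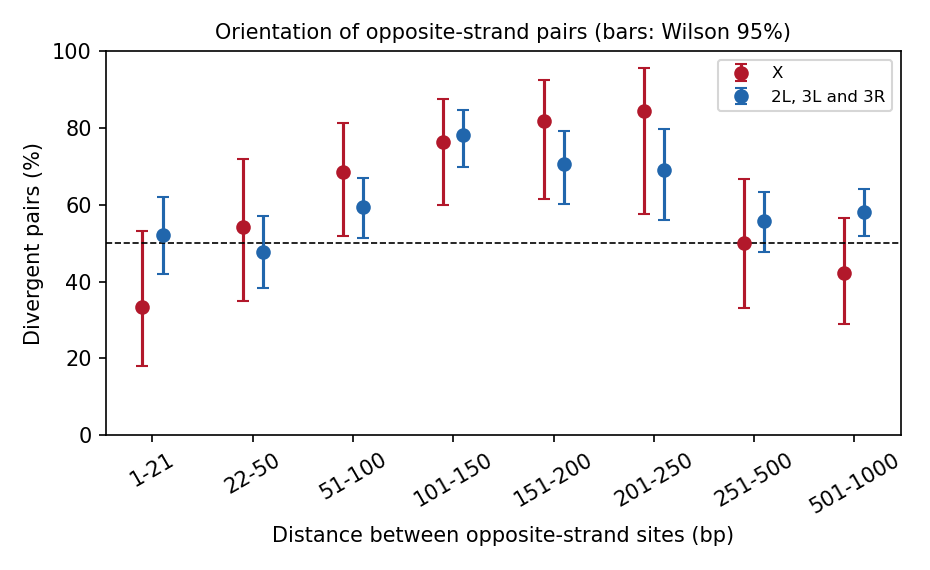
Share of divergent pairs among opposite-strand pairs (y axis, percent, with Wilson 95% intervals) by the distance between the sites (x axis, bp), for X and for 2L, 3L and 3R; the dashed line marks an equal split. On X the share is 33.3% at 1 to 21 bp, between 68.6% and 84.6% from 51 to 250 bp, and 42.2% at 501 to 1000 bp.

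Every site carries a serial number, and the sources used here do not say what it rests on. The 5 lowest numbers on X were 4 at 6173301 (minus strand), 5 at 11908458 (plus), 6 at 8819203 (plus), 26 at 18691711 (minus) and 32 at 5324588 (plus). Site 26 had an opposite-strand neighbour 18 bp away and a same-strand neighbour 54 bp away, whereas the nearest sites of the other 4 lay between 1065 and 4320 bp away. Among the lowest-numbered 10% of the list were 200 X sites, or 10.1% (8.88 to 11.5) of all on X, against 10.4% (9.71 to 11.1) on the other arms. The difference was -0.24 percentage points (-1.67 to 1.32; Fisher's exact p = 0.804, adjusted 0.804). The median number was 6862.5 on X, 6490.5 on 2L, 6642 on 3L and 6812 on 3R. The X median lies within a block of consecutive X numbers that follows position sorted as text, digit by digit. The medians were therefore not read as differences between sites.

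High numbers followed the order of chromosome and position sorted as text, digit by digit. Shorter blocks of X numbers sorted by position in this way also occurred lower in the list, so the order is not limited to high numbers. Over the longest stretch of numbers that keeps this order, from 10889 to 13206, the whole X took the unbroken block of 338 numbers from 12850 to 13187, of which 323 were members and the others lay above 21 Mb. In the next longest the whole X took the 230 numbers from 10631 to 10860 (218 members), and in the one after that the 161 numbers from 9197 to 9357 (155 members). The share of the 1974 members was 5.22% for the numbers 9254 to 10574, 11.1% for 10575 to 11896 and 16.5% for 11897 to 13218, while 2L, which comes at the start of that order, had 19.5% and 0.047% in the last 2 of these ranges. Differences between arms at high numbers were therefore not read as differences between sites.

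**Figure D5:**
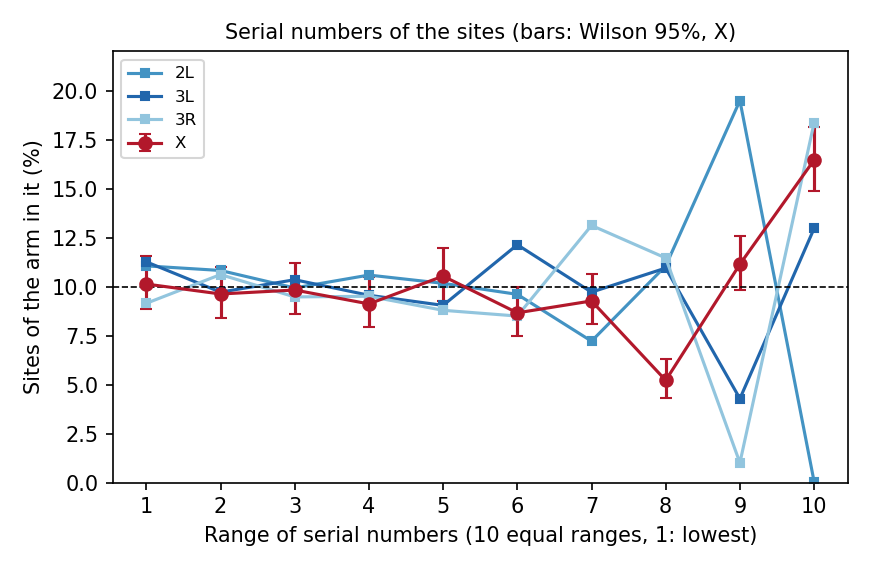
Share of each arm's sites (y axis, percent) in each of 10 equal ranges of the serial numbers (x axis, from lowest to highest), for X with Wilson 95% intervals and for 2L, 3L and 3R; the dashed line marks 10%. The arms lie close together over the first 5 ranges, where X stays between 9.12% and 10.5%, and lie further apart from the sixth on, with 7.22% of 2L and 13.1% of 3R in the seventh and X going from 5.22% in the eighth to 16.5% in the last.

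Within X, the surroundings of low-numbered sites were set beside those of high-numbered ones. A same-strand neighbour within 100 bp was present at 19.5% (14.6 to 25.5) of the 200 lowest-numbered X sites and at 14.9% (12.1 to 18.1) of the 545 among the highest-numbered 25%. An opposite-strand neighbour was present at 5.0% (2.74 to 8.96) and 8.26% (6.23 to 10.9). On the other arms the same-strand shares were 19.0% and 13.0%. Their opposite-strand shares, 8.99% and 7.91%, went in the other direction from those of X. The X intervals overlap for either strand class, and none of these differences was tested. Among 182 same-strand X pairs at 22 to 100 bp, the downstream site had the lower number in 108, or 59.3% (52.1 to 66.2; exact binomial p = 0.0142), close to the 58.6% (54.8 to 62.4) of the other arms (Fisher's exact p for the difference = 0.932). At 101 to 250 bp it was 21 of 51 on X (41.2%, 28.8 to 54.8). This comparison was chosen after the lists had been seen. A site can enter several pairs, so the binomial p is too small. Where both numbers fall in a stretch sorted as text, as 13018 and 13019 do, position sets which is lower.

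A screen of fragments from bacterial artificial chromosomes (BACs), in 3 S2 samples with the zfh1 enhancer and 1 without an enhancer, gave a separate list with 96 sites on X. They fell into 4 regions, taken as stretches without a gap above 60 kb, of 0.639 Mb in all, which held 82 of the 1974 members (4.15%). Each region begins and ends at a BAC site, since the labels give no coordinates of the inserts. Both lists held the same base and strand at 51 sites, 53.1% (43.2 to 62.8) of the X BAC sites and 62.2% (51.4 to 71.9) of the members in the regions. On 2L, 3L and 3R these shares were 52.4% (48.2 to 56.6; Fisher's exact p for the difference = 0.912) and 61.5% (57.0 to 65.9; exact p = 1). Within 5 bp 57 of the X BAC sites (59.4%) had a counterpart.

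The 4 X regions varied in how many sites they shared. From 8010133 to 8168370 there were 34 BAC sites and 28 genome-wide sites, 18 of them shared. From 5641281 to 5796028 there were 22 and 16, with 10 shared. From 9497641 to 9643574 there were 20 and 24, with 11 shared, and this was the one X region with more genome-wide than BAC sites. From 15604695 to 15784995 there were 20 and 14, with 12 shared, so that 2 genome-wide sites had no BAC site at the same base. X BAC sites with low numbers recurred more often: 32 of the 48 lower-numbered ones (66.7%, 52.5 to 78.3) and 19 of the 48 higher-numbered ones (39.6%, 27.0 to 53.7) were in the genome-wide list (Fisher's exact p = 0.0137, for a split chosen after the lists had been seen). That test treats sites of the 4 regions as independent. The other arms are not set beside this split, so it is not read as particular to X.

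The X BAC sites with the lowest numbers did not have low numbers genome-wide. The lowest, 27, was at 5794903 on the plus strand, and its counterpart 5 bp upstream, at 5794898, had number 3300. Number 41 was at 8165435 on the minus strand, with a counterpart at 8165431 numbered 9346, and number 50 was at 15706362 on the plus strand, the same base as genome-wide number 10882. Numbers 61, at 8087241 (plus), and 64, at 9539972 (minus), had counterparts numbered 6101, at the same base, and 2670, at 9539969. In the BAC list 46 X sites were on the plus and 50 on the minus strand (47.9% plus, 38.2 to 57.8), an interval that takes in equal use as well as the 52.6% of all members. Of the 9 opposite-strand X pairs of the BAC list in the range of 22 to 250 bp, 8 pointed apart and 1 pointed together.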

How the data were processed

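Both deposited lists are BED-like tables of 1-base sites; their other values, end coordinates and serial numbers, are as the authors deposited them, without counts or levels. The submitters' processing notes name dm3 as the build and, with no role, Bowtie 0.12.9 and CASAVA 1.9.1. The calling, pooling and numbering of sites are not given in the sources used here. Of 18 samples, the 10 with other enhancers were not analysed here. The members and tests were chosen with earlier results of these data known. Positions are 1-based. The gene table at hand is of another build, so no site was given a gene and no sequence was read.

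Computation used scipy 1.17.1, statsmodels 0.14.6, pandas 2.3.3 and numpy 2.4.6 under Python 3.11.15, with matplotlib 3.10.9 for plots. Lengths ran from base 1 to 21 Mb on X and to the last listed site elsewhere. Shares have Wilson and differences Newcombe 95% intervals, the ratio of rates an exact one; they cover counting error only. Windows were fitted with quasi-Poisson and quasi-binomial models, and windows with at least 6 sites were tested for strand. Sites were named by fixed rules: the lowest numbers, largest groups (gaps up to 250 bp), widest gaps, extreme windows, BAC regions and the sites at the limit; all others were named after their values had been seen. The scripts were tested on simulated data.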

Additional observations from a re-analysis of the deposited data

How the results depend on the processing

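No paired analysis was possible because neither list has values by sample, which also prevented leaving out replicates. Of 56 alternatives 49 left direction and call as they were, with the plus-strand share and the low-number share among the results that kept both throughout. The divergent share kept its direction and stayed short of the threshold, but its difference fell from 7.62 to 0.87 percentage points with pairs at 22 to 1000 bp. No alternative for it took in pairs closer than 22 bp. The ratio of site densities turned to 1.01 against 2L alone and was no longer past the threshold with 1 Mb windows as the unit (0.913), a fit added after seeing the data, in which clustering of sites enters the error. The opposite-strand neighbour difference turned to 0.47 percentage points against 3R alone, and the same-strand difference to -0.30 points at 1000 bp. The difference in isolated sites turned to -0.58 points at 2000 bp and passed the threshold at 10000 bp (2.19 points), with sites taken as independent. The share of X members in BAC regions that recurred, less that of the arms, turned from 0.67 to -1.65 points with regions split at 40 kb. Except for density and isolation, none of these was past the threshold before or after, and the causes were not tested. Leaving out the highest-numbered 25% of sites removes arms unequally, since high numbers follow the order of chromosome names. Depth is unknown and limits every statement on sites listed in 1 screen alone.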
